A study of Homo sapiens with 6 samples.

Results

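Transcripts of the aminoacyl-tRNA synthetases were followed in OCI-AML2, an established human cell line from acute myeloid leukaemia. One group of 3 libraries came from cells given MRT199665 at 100 nM for 48 h, and the other group of 3 from cells given vehicle alone for the same time. The labels call MRT199665 a MARK inhibitor, and it also acts on SIK kinases of the same family. The labels say that single-cell clones were grown, without their number, and nothing says that a group's libraries are separate cultures. The p-values therefore cover only the spread between libraries, and that spread may be technical. The 36 members were chosen by gene symbol from the 55765 genes of the deposited count table. They comprised 20 genes of mainly cytosolic enzymes and 16 genes of mitochondrial enzymes (symbols ending in ARS2, such as PARS2 or EARS2). All 36 passed the filter on low counts, as did 13053 genes in all.

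Each aminoacyl-tRNA synthetase joins 1 kind of amino acid to its transfer RNAs, and the charged transfer RNAs then supply the ribosome. Mammalian cells carry separate nuclear genes for most of the cytosolic and mitochondrial enzymes, while GARS and KARS each encode both forms of the glycine and lysine enzymes. EPRS charges both glutamate and proline transfer RNAs, and FARSA and FARSB encode the subunits of the cytosolic phenylalanine enzyme. Several cytosolic enzymes are held in a multi-synthetase complex with non-enzymatic scaffold proteins. When amino acids run short, uncharged transfer RNAs activate the kinase GCN2 (EIF2AK4), which leads to translation of the transcription factor ATF4. Many cytosolic synthetase genes are known targets of ATF4, which binds composite C/EBP-ATF response elements.

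The promoters are shown first because several cytosolic members share 1 short sequence at their starts. The core of the C/EBP-ATF response element, TGATGNAA, was searched on both strands. The windows ran from 250 bases before to 50 after the gene start in the RefSeq promoter table (GRCh38.p14), with the first promoter listed for each gene. Of the 36 members, 30 had a promoter in the table. The motif lay in 6 of 16 cytosolic members (37.5%) and 1 of 14 mitochondrial members (7.14%), against 401 of 15843 promoters of protein-coding genes (2.53%). Among amino acid starvation response genes, a list described below, it lay in 5 of 25 promoters (20%). In the 250 bases before the start alone, it lay in 2 of 16 cytosolic members (12.5%) and in 2.21% of protein-coding promoters. The whole window was added after the data were seen, since 4 of the 6 cytosolic matches touch or follow the start. In the same window, TGATGCAA lay in 0.669% of protein-coding promoters and in 1 of 25 promoters (4%) of the starvation response genes. All 6 cytosolic matches had this narrower form. It was picked after the matches were seen, so its share beside them is no independent support. Each site is printed 5′ to 3′ on the strand that reads the motif, with 11 bases on either side and the match in capitals.
AARS, chr16:70289675-70289704, plus strand: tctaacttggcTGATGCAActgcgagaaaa
CARS, chr11:3057407-3057436, plus strand: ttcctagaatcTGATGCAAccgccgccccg
IARS, chr9:92293692-92293721, plus strand: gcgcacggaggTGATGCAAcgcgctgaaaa
MARS, chr12:57488053-57488082, minus strand: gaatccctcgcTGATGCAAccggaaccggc
NARS, chr18:57621804-57621833, minus strand: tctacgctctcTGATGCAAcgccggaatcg
TARS, chr5:33440956-33440985, minus strand: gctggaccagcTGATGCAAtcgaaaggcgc
YARS2, chr12:32756076-32756105, minus strand: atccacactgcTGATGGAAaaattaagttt

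The AARS match began 187 bases before the gene start and the IARS match 13 bases before it. Those of CARS and MARS began 2 and 4 bases before the start and ran across it, and those of TARS and NARS began 2 and 14 bases after it. The mitochondrial match in YARS2 began 197 bases before the start and had another letter at the free position. A match is a description of the letters, not evidence that a factor binds there. The cytosolic genes DARS, LARS, VARS and YARS and the mitochondrial genes AARS2 and VARS2 had no entry under their symbols.

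The 6 libraries held between 5871097 and 14308650 counts, MRT199665 replicate 2 being the shallowest. A count of 3, the limit that a count of 0 allows, was worth 0.213 to 0.507 CPM (counts relative to the library total scaled by the trimmed mean of M-values), and this covers counting error only. The groups overlapped on the first principal component, which took up 49.17% of the variance. MRT199665 replicate 2 lay at one end (39.5) and vehicle replicate 2 at the other (-30.7). On the second component, which took up 26.88%, the groups were apart. There MRT199665 replicates 1, 2 and 3 were at -21.2, -5.75 and -13.5, and vehicle replicates 1, 2 and 3 at 28.8, 1.40 and 10.3. Of 10 myeloid markers, 9 were tested, with summed levels of 960.4 to 1118 CPM with MRT199665 and 722.5 to 1119 CPM with vehicle, and CEBPA had no count. AZU1 was the largest term of this sum in every library. Singly, 4 myeloid markers had every MRT199665 library above every vehicle library and an unadjusted p under 0.05, with log2 fold changes of 0.47 for MPO, 0.39 for CSF3R, 0.32 for CD33 and 1.22 for LYZ, while ANPEP was at -0.93 with groups apart. Of all genes tested, 11.4% had groups apart with MRT199665 higher and 10.8% with MRT199665 lower. An unadjusted p under 0.05 was reached by 7.64% with a higher and 7.11% with a lower level. None of the 9 markers was called. Summed T and NK cell markers ranged from 38.7 to 42.3 against 29.8 to 34.3 CPM. This sum was nearly all CD4 and NKG7, with CD2 at 0 and CD3E at or near 0. For B cells, erythroid cells, fibroblasts and epithelial cells the summed ranges of the groups overlapped, with MS4A1, HBB, COL3A1 and KRT18 at 0. The markers' part in the results was not tested. In such bulk RNA, fewer cells of a type and less RNA per cell cannot be told apart.

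With MRT199665, the cytosolic synthetase genes were mostly at lower levels than with vehicle, and GARS and YARS fell by the edgeR quasi-likelihood test, with calls made where the Benjamini-Hochberg value over 13053 genes was under 0.05. Of the 20 cytosolic members, 18 had a negative log2 fold change (MRT199665 over vehicle), with a median of -0.32, beside a median of 0.01 over all genes tested. The 16 mitochondrial members had a median of -0.02, with 10 negative. Among all genes tested, 0.398% were called lower, 0.85% higher and 1.25% in either direction, against 2 of 20 cytosolic members lower and none higher. No mitochondrial member was called by edgeR, DESeq2 or limma-voom, and 1 of the 16, CARS2, had an unadjusted p under 0.05.

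Counting the called GARS and YARS, 9 of 20 cytosolic members had an unadjusted p under 0.05 with a lower level, against 7.11% of all genes tested. No member had such a p with a higher level, where the share of all genes was 7.64%. In 10 of 20 cytosolic members every MRT199665 library lay below every vehicle library, against 10.8% of all genes. In QARS and the mitochondrial EARS2 every MRT199665 library lay above every vehicle library, as in 11.4% of all genes. DESeq2 called 5 cytosolic members lower (GARS, YARS, AARS, CARS and TARS), while 6 were called when edgeR ran with no filter on low counts, with EPRS added. These settings also called more genes in all, 146 of 13053 lower with DESeq2 and 271 of 28230 lower with no filter. Left out 1 at a time, MRT199665 replicates 1, 2 and 3 and vehicle replicates 2 and 3 each left 0 calls by edgeR, and only without vehicle replicate 1 were both calls kept. The cytosolic median stayed negative in all of these settings, between -0.25 (without vehicle replicate 1) and -0.38 (without both ends of the first component).

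**Figure D1:**
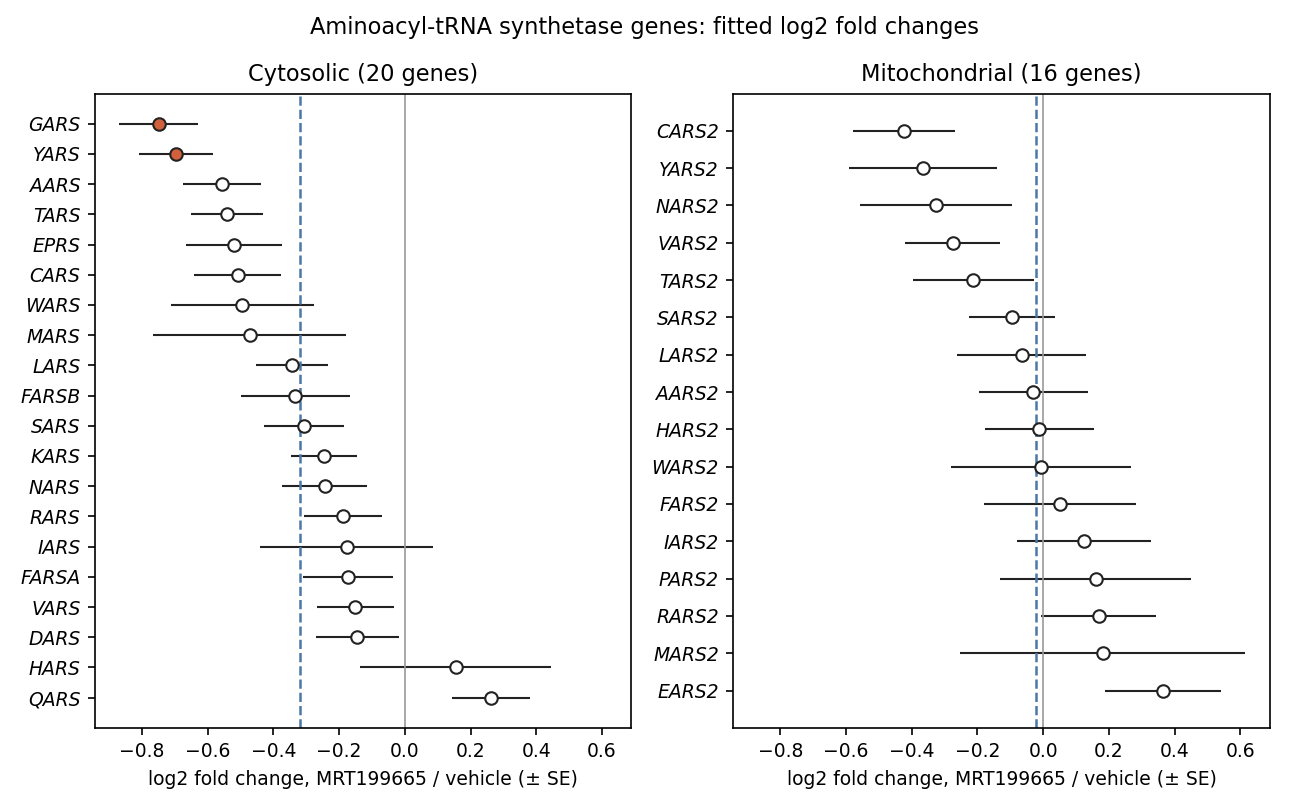
Fitted log2 fold change (MRT199665 over vehicle, horizontal axis) of each of the 20 cytosolic and 16 mitochondrial members, with bars for the SE. Filled points are the called genes GARS and YARS, and the dashed lines are the medians, -0.32 and -0.02.

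GARS, which charges glycine transfer RNA in both compartments, stood at 77.6, 70.0 and 77.5 CPM in MRT199665 replicates 1, 2 and 3. With vehicle it stood at 112, 128 and 139 CPM. The groups did not overlap, and the gap between them was wider than the spread within either. GARS fell 1.68-fold, from 126 ± 13.5 to 75.02 ± 4.37 CPM (SD, n = 3 per group), a log2 fold change of -0.75 ± 0.12 (SE, edgeR adjusted p = 0.0238). YARS, the cytosolic tyrosine enzyme, was at 65.1, 63.0 and 74.3 CPM with MRT199665 and at 105, 111 and 113 CPM with vehicle. Its groups were also separate, with vehicle libraries close to each other. YARS fell 1.62-fold, from 109 ± 4.32 to 67.5 ± 5.98 CPM (SD, n = 3 per group), with a log2 fold change of -0.70 ± 0.11 (SE, edgeR adjusted p = 0.0238). Both calls rested on most of the libraries. Without MRT199665 replicate 1, 2 or 3 the edgeR adjusted p of GARS was 0.100, 0.0660 and 0.139, and without vehicle replicate 2 or 3 it was 0.0691 and 0.171. For YARS these values were 0.131, 0.0648 and 0.0819, then 0.0786 and 0.177. Their log2 fold changes moved little, between -0.83 and -0.68 for GARS and between -0.79 and -0.64 for YARS over the 16 alternatives.

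TARS, AARS and CARS charge threonine, alanine and cysteine transfer RNAs, act outside the multi-synthetase complex, and hold the shared promoter sequence printed above. TARS was at 221, 191 and 212 CPM with MRT199665 and at 308, 294 and 306 CPM with vehicle. AARS was at 130, 110 and 136 CPM against 175, 187 and 191 CPM. CARS was at 176, 144 and 182 CPM against 223, 263 and 228 CPM. In all 3 genes the groups were apart, and MRT199665 replicate 2 was the lowest library. The log2 fold change was -0.54 ± 0.11 for TARS (SE, edgeR adjusted p = 0.0608). For AARS it was -0.56 ± 0.12 (adjusted p = 0.0717) and for CARS -0.51 ± 0.13 (adjusted p = 0.120). These genes thus missed the threshold of the main test, while DESeq2 called them with adjusted p = 0.00220 for TARS, 0.00789 for AARS and 0.0422 for CARS.

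**Figure D2:**
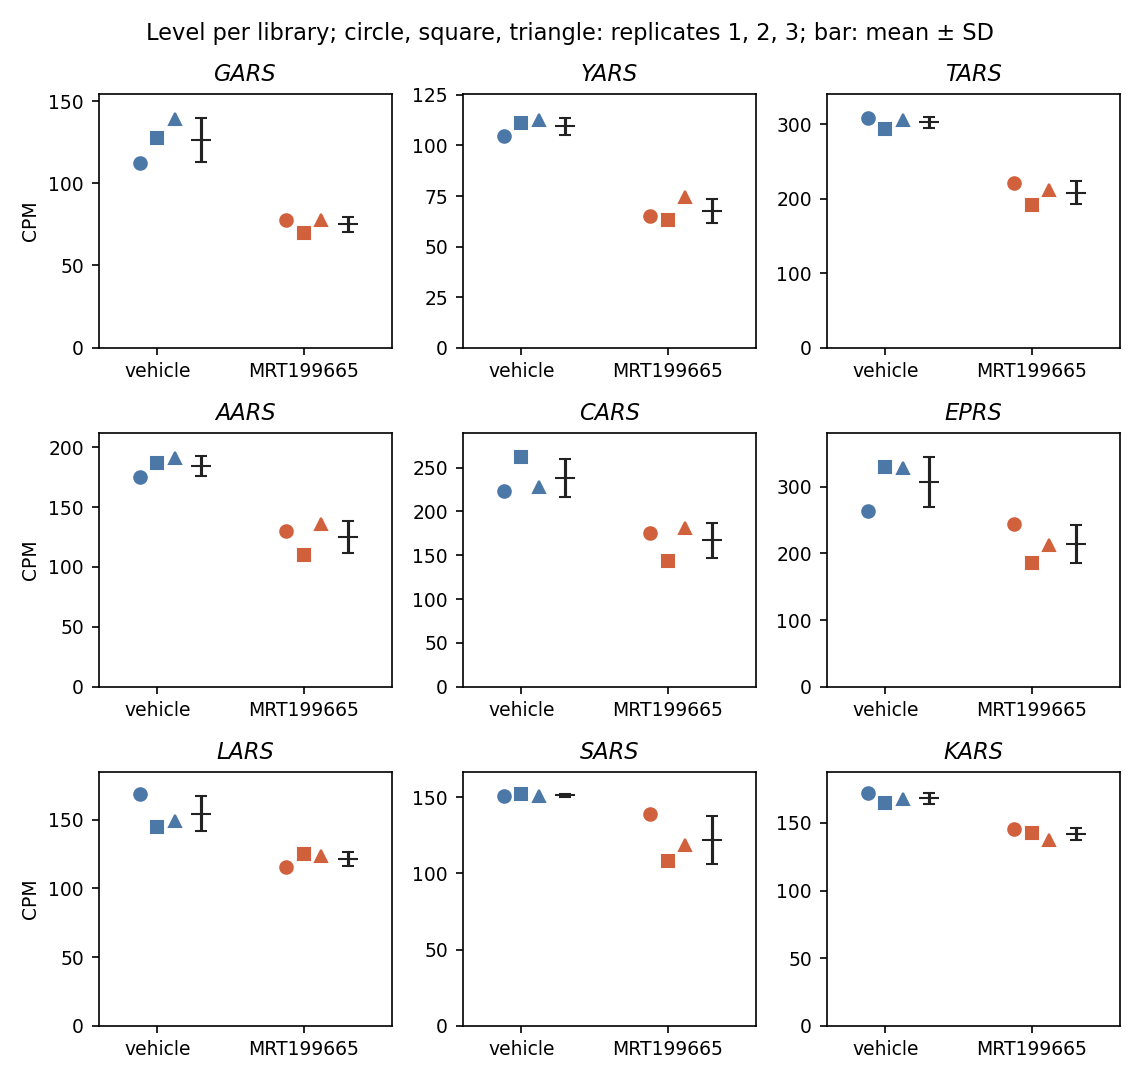
Level in CPM (vertical axes from 0) of 9 cytosolic members in each vehicle and MRT199665 library, with the mean ± SD of each group beside the points. In each panel all MRT199665 libraries lie below all vehicle libraries, for example 70.0 to 77.6 against 112 to 139 CPM for GARS.

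Of the 8 enzymes in the multi-synthetase complex, 7 had a negative log2 fold change and the median was -0.22, beside -0.41 for the 12 cytosolic members outside it. The difference between these lists was not tested. None of the 8 was called by edgeR with the low-count filter, DESeq2 or limma-voom. An unadjusted p under 0.05 with a lower level was seen in 3 of the 8, against 7.11% of all genes tested. With no filter on low counts edgeR called EPRS (adjusted p = 0.0284). EPRS, the glutamate and proline enzyme, was at 244, 186 and 212 CPM with MRT199665 and at 263, 330 and 328 CPM with vehicle. MRT199665 replicate 1 and vehicle replicate 1 came close to each other. Its log2 fold change was -0.52 ± 0.15 (SE, edgeR adjusted p = 0.145). LARS, the leucine enzyme, was at 116, 125 and 124 CPM against 169, 145 and 149 CPM (log2 fold change -0.34 ± 0.11, SE). KARS, the lysine enzyme of both compartments, was at 146, 142 and 137 CPM against 172, 164 and 168 CPM. The KARS groups were narrow and separate, and the log2 fold change was -0.25 ± 0.10 (SE, edgeR adjusted p = 0.303).

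QARS, the glutamine enzyme of the same complex, lay in the other direction. It was at 251, 280 and 270 CPM with MRT199665 and at 213.5, 248 and 206 CPM with vehicle. The groups did not overlap, but MRT199665 replicate 1 and vehicle replicate 2 nearly met. Its log2 fold change was 0.26 ± 0.12 (SE, edgeR adjusted p = 0.353), and it was not called in any of 16 alternatives, with values from 0.21 to 0.34. RARS and DARS, the arginine and aspartate enzymes, had overlapping groups and log2 fold changes of -0.19 and -0.14.

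IARS and MARS, the isoleucine and methionine enzymes, are complex members whose libraries did not follow the groups. MARS was at 13.7, 22.0 and 17.1 CPM with MRT199665 and at 35.4, 16.0 and 21.0 CPM with vehicle. IARS was at 8.68, 15.9 and 9.14 CPM against 15.2, 9.70 and 12.2 CPM. In both genes MRT199665 replicate 2 was the highest treated library and vehicle replicate 2 the lowest vehicle library. The same held for 6 cytosolic members (DARS, IARS, LARS, MARS, NARS and RARS) and 6 mitochondrial ones (AARS2, FARS2, IARS2, MARS2, PARS2 and WARS2). These libraries stood at opposite ends of the first component, and the part of that component in these genes was not tested. In 7 members the order was the opposite, with MRT199665 replicate 2 lowest and vehicle replicate 2 highest (CARS, EPRS, SARS, CARS2, HARS2, NARS2 and YARS2). Without both libraries the log2 fold change of MARS moved from -0.47 to -0.88, that of IARS from -0.18 to -0.63 and that of WARS, the tryptophan enzyme, from -0.49 to -0.77. None of the 3 was called in that fit. The values also moved the other way: without vehicle replicate 1, the highest vehicle library in these genes, MARS was at -0.09, IARS at -0.01 and WARS at -0.30. FARSB was at -0.15 in that fit. Without both replicate 2 libraries, FARSB was at -0.48, NARS at -0.39, RARS at -0.30 and DARS at -0.28, further from 0 than with all libraries. CARS (-0.34), CARS2 (-0.23), NARS2 (-0.14), FARSA (-0.07) and YARS2 (-0.07) were then nearer to 0.

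Among the other enzymes outside the complex, SARS, which charges serine transfer RNA, was at 139, 108 and 119 CPM with MRT199665. With vehicle its levels were nearly the same in each library, at 150.5, 152 and 151 CPM. The groups were apart, and the log2 fold change was -0.31 ± 0.12 (SE, edgeR adjusted p = 0.287). VARS, the valine enzyme, was at 28.8, 33.8 and 32.0 CPM against 34.6, 35.6 and 34.6 CPM, groups that did not overlap but almost touched. NARS, the asparagine enzyme, was at 86.4, 99.7 and 92.4 CPM against 125, 96.4 and 108 CPM, so that MRT199665 replicate 2 lay above vehicle replicate 2. WARS was at 13.5, 19.6 and 12.6 CPM against 26.6, 19.0 and 17.7 CPM, and only MRT199665 replicate 2 reached the vehicle range. FARSA, a phenylalanine subunit with the most counts of all members, was at 469, 473 and 558 CPM against 486, 617 and 589 CPM. FARSA and its partner FARSB had log2 fold changes of -0.17 ± 0.14 and -0.33 ± 0.17 (SE), with overlapping groups. HARS, the histidine enzyme, had only 29 to 43 counts per library, and its log2 fold change of 0.15 ± 0.29 (SE) turned to -0.10 without MRT199665 replicate 2.

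The cytosolic members were also set against a list of ATF4 targets written from general knowledge with earlier results of these data known. This list is therefore no independent support. All 13 cytosolic synthetases on that list (AARS, CARS, EPRS, GARS, IARS, LARS, MARS, NARS, SARS, TARS, VARS, WARS and YARS) had negative log2 fold changes, with a median of -0.49 and both called genes. The 7 others (DARS, FARSA, FARSB, HARS, KARS, QARS and RARS) had a median of -0.17, with 5 negative. The ranges of the lists overlapped, since VARS (-0.15) and IARS (-0.18) on the list were nearer to 0 than FARSB (-0.33) and KARS (-0.25) outside it. The 6 cytosolic genes with the motif had a median of -0.49 (range -0.56 to -0.18), and the 10 with a promoter lacking it had a median of -0.28 (range -0.75 to 0.26). GARS, which fell, was among those without a match in the window, and none of the 6 genes with one was called by edgeR. No difference between these lists was tested. By structural class, the 10 class I genes (EPRS counted there) had a median of -0.41 and the 10 class II genes a median of -0.28, with 1 called gene in each, YARS and GARS.

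Mitochondrial synthetase genes gave lower levels, with group means with vehicle between 0.993 and 88.2 CPM, and wider errors (median SE 0.19, against 0.12 for cytosolic members). CARS2, the cysteine enzyme, had the lowest p. It was at 66.6, 54.3 and 75.8 CPM with MRT199665 and at 75.5, 98.0 and 91.2 CPM with vehicle, the highest treated and lowest vehicle libraries being almost equal. Its log2 fold change was -0.42 ± 0.15 (SE, edgeR adjusted p = 0.253). EARS2, the glutamate enzyme, was at 8.76, 8.96 and 11.8 CPM against 7.13, 8.32 and 7.63 CPM. Its groups were apart with MRT199665 higher, and its log2 fold change was 0.37 ± 0.18 (SE, edgeR adjusted p = 0.388). The other 14 mitochondrial genes had overlapping groups. The tyrosine, asparagine, valine and threonine enzymes YARS2, NARS2, VARS2 and TARS2 had log2 fold changes of -0.37, -0.33, -0.28 and -0.21. YARS2 was at 8.76, 6.25 and 11.1 CPM against 11.4, 13.5 and 9.36 CPM, so that its highest treated library lay inside the vehicle range. SARS2 was at -0.09, LARS2 at -0.07, AARS2 at -0.03, and HARS2 and WARS2 at -0.01. FARS2, IARS2, PARS2, RARS2 and MARS2 lay between 0.05 and 0.18, MARS2 with only 7 to 16 counts per library. IARS2, the isoleucine enzyme, was at 31.3, 47.7 and 26.8 CPM against 33.05, 30.5 and 32.5 CPM, and only MRT199665 replicate 2 lay above the vehicle range. WARS2, the tryptophan enzyme, was at 10.7, 16.6 and 9.99 CPM against 14.9, 7.98 and 13.8 CPM, with the replicate 2 libraries again opposite to the others. Without both of these libraries WARS2 stood at -0.48 and IARS2 at -0.18.

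The mitochondrial median rested on single libraries. It was -0.12 without MRT199665 replicate 2, -0.11 without vehicle replicate 2 and -0.15 without both. It was 0.01 without MRT199665 replicate 1, 0.04 without vehicle replicate 1, -0.05 without MRT199665 replicate 3 and -0.01 without vehicle replicate 3. The mitochondrial sum over all 16 genes was 260 to 270 CPM with MRT199665 and 281 to 299.8 CPM with vehicle, 9.02% lower on average. For the 20 cytosolic genes the sum was 2563 to 2660 CPM against 3136 to 3269 CPM, 18.9% lower. Neither pair of ranges overlapped, and the abundant members set these sums. The mitochondrial sum averaged 266 CPM with MRT199665 and 292 CPM with vehicle, and CARS2 alone averaged 65.6 and 88.2 CPM. Most of the mitochondrial difference thus lay in CARS2, and it does not show a drop across the 16 genes.

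In 13 cases both compartments had an enzyme gene of the same name. The cytosolic log2 fold change was below the mitochondrial one in 10 of these 13 pairs, with a median difference of -0.30. The widest gaps were in MARS and MARS2 (-0.47 and 0.18) and in AARS and AARS2 (-0.56 and -0.03). MARS and MARS2 had wide errors (SE 0.29 and 0.43). MARS was at -0.09 without vehicle replicate 1, and MARS2 changed sign in 3 of 16 alternatives. The tyrosine pair was low in both compartments, at -0.70 for YARS and -0.37 for YARS2, as was the cysteine pair, at -0.51 for CARS and -0.42 for CARS2. In the asparagine, valine and histidine pairs the mitochondrial gene had the lower value. The difference between compartments was not tested, since the pairs are not replicates of a condition.

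**Figure D3:**
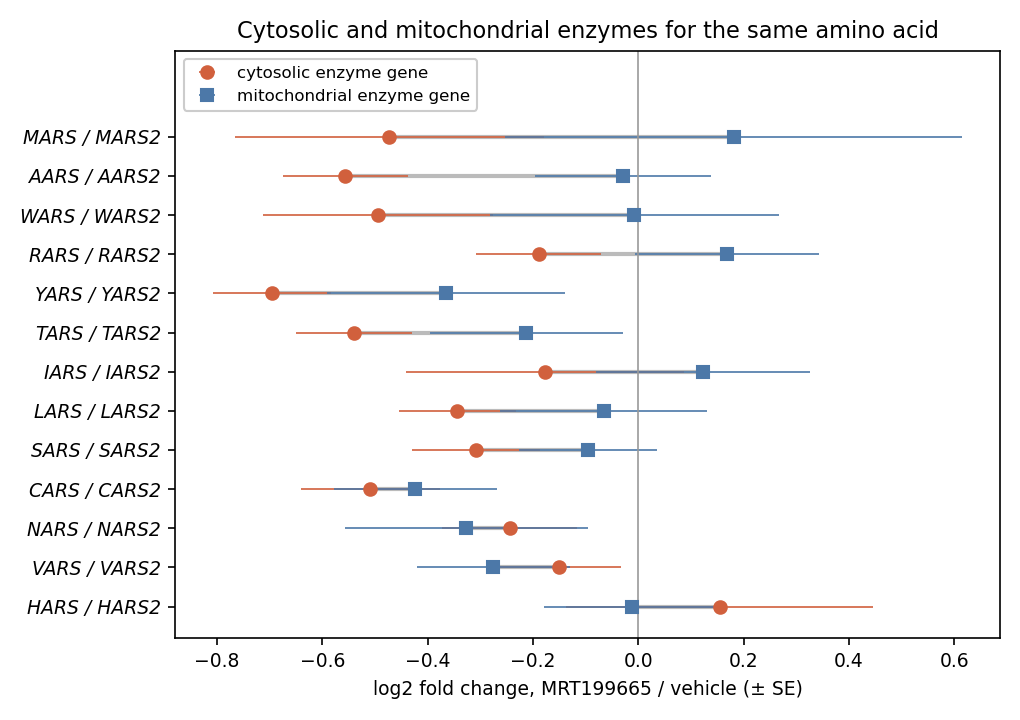
Log2 fold change (MRT199665 over vehicle, horizontal axis, bars for the SE) of the cytosolic gene (circle) and mitochondrial gene (square) for the same amino acid in 13 pairs. The cytosolic point lies to the left in 10 pairs, by most in MARS and MARS2 (-0.47 and 0.18).

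Genes for proteins that work with the synthetases did not pass the test. Of 21 genes for scaffolds, elongation factors and further aminoacylation enzymes, 18 were tested, with a median log2 fold change of -0.03. None was called by edgeR, DESeq2 or limma-voom, and none had an unadjusted p under 0.05. Every MRT199665 library lay below every vehicle library in 3 of the 18, against 10.8% of all genes. The reverse held in 1 of the 18, against 11.4% of all genes. EEF1E1, a scaffold of the multi-synthetase complex, was at 21.3, 34.0 and 24.1 CPM against 33.8, 32.8 and 34.9 CPM, with MRT199665 replicate 2 at the vehicle level. EEF1G, an elongation factor subunit that growing cells use, had a count of 0 in all libraries, so a count of 0 in this table does not show absence.

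Genes that make and mature transfer RNA were also near the median of all genes. Of 50 genes for transfer RNA processing, modification and export, 49 were tested, with a median log2 fold change of -0.07 and no call by edgeR with the low-count filter or limma-voom. There were 3 of 49 with an unadjusted p under 0.05, all with a lower level, against 7.11% of all genes tested. TSEN15 was called by DESeq2 and when edgeR ran with no filter on low counts. TSEN15, a subunit of the splicing endonuclease, was at 3.32, 4.06 and 3.26 CPM with MRT199665 and at 16.9, 6.01 and 5.19 CPM with vehicle. Its log2 fold change of -1.43 ± 0.45 (SE, edgeR adjusted p = 0.179) became -0.69 without vehicle replicate 1, the library that stood high. XPOT, which exports transfer RNA from the nucleus, was at 11.6, 13.0 and 11.8 CPM against 17.2, 14.8 and 17.1 CPM (log2 fold change -0.44 ± 0.14, SE, edgeR adjusted p = 0.182). Of 21 genes of RNA polymerase III and its factors, none was called by edgeR with the low-count filter or limma-voom, and the median was -0.05. In 3 of the 21 the unadjusted p was under 0.05 with a lower level, against 7.11% of all genes tested. POLR3G, a polymerase III subunit, was at 9.97, 9.97 and 11.1 CPM against 15.1, 18.02 and 17.0 CPM. Its log2 fold change was -0.69 ± 0.14 (SE, edgeR adjusted p = 0.0636), and it was called by DESeq2 (adjusted p = 0.0264) and by edgeR with no filter on low counts (adjusted p = 0.0174). POLR3D, another subunit, had a log2 fold change of -0.32 ± 0.10 (SE, edgeR adjusted p = 0.176).

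In the list of amino acid starvation response genes, to which ATF4 belongs, 8 of 30 tested genes were called lower and none higher, beside 0.398% of all genes called lower. The other 22 did not pass the edgeR test, and 3 of them (CEBPG, VLDLR and IMPACT) had positive log2 fold changes. The median of the 30 was -0.62. Counting the called genes, 20 of the 30 had an unadjusted p under 0.05 with a lower level, against 7.11% of all genes. In 19 every MRT199665 library lay below every vehicle library, against 10.8% of all genes. DESeq2 called 12 lower, beside 146 of 13053 genes in all. With no filter on low counts edgeR called 13 lower, beside 271 of 28230 genes in all. Lower levels of part of this list were known from earlier results of these data, so it is no independent support. ASNS, which makes asparagine, was at 74.3, 67.8 and 98.7 CPM with MRT199665 against 289, 263 and 248 CPM with vehicle. ATF4 itself was at 936, 662 and 860 CPM against 1381, 1565 and 1521 CPM, a log2 fold change of -0.86 ± 0.15 (SE, edgeR adjusted p = 0.0380). All 3 MRT199665 libraries of both genes lay below all vehicle libraries, and MRT199665 replicate 2 was the lowest in each. The other called genes with the lowest p were ALDH1L2 and PHGDH, of folate and serine metabolism, and SESN2, a regulator of nutrient signalling. The log2 fold changes of GARS and YARS, -0.75 and -0.70, were thus smaller in size than those of ASNS (-1.73), ALDH1L2 (-2.24) and PHGDH (-1.12) and close to those of ATF4 and SESN2 (-0.88). ATF4 was no longer called by edgeR once MRT199665 replicate 1, 2 or 3 was left out (adjusted p = 0.0797, 0.0564 and 0.181), nor once vehicle replicate 2 or 3 was (0.0993 and 0.211). SESN2 lost its call when MRT199665 replicate 1 or 3 was dropped (0.0653 and 0.0539) and when vehicle replicate 3 was (0.0985). EIF2AK4, the kinase that senses uncharged transfer RNA, was at 65.3, 58.5 and 73.6 CPM against 71.9, 72.8 and 65.7 CPM, with overlapping groups and a log2 fold change of -0.09 ± 0.12 (SE).

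**Figure D4:**
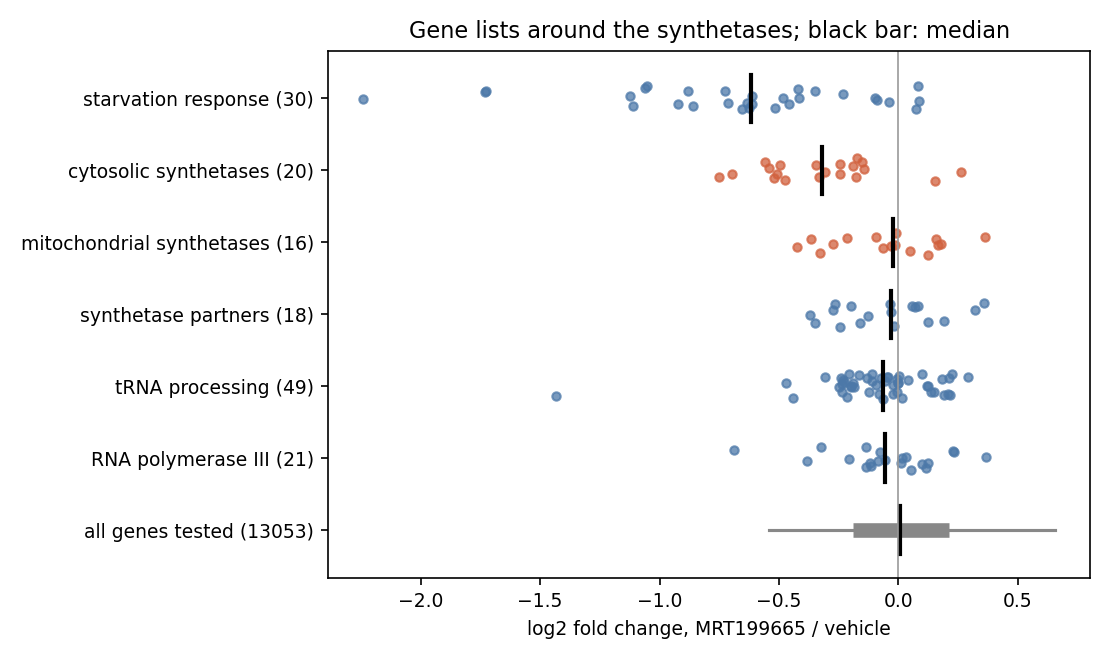
Log2 fold change (MRT199665 over vehicle, horizontal axis) of each tested gene in the 6 lists, with the median as a black bar, and of all 13053 genes tested as a box from percentile 25 to 75 with a line from percentile 5 to 95. The medians are -0.62 for the starvation response, -0.32 for cytosolic and -0.02 for mitochondrial synthetases, and 0.01 for all genes.

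Where the reads of a member could be shared with a neighbour, this was read from GENCODE release 29, whose build differs from that of the counts. Within the last 500 bases of their coding transcripts, 5 members overlapped an exon of another gene. MARS met DDIT3 on the opposite strand, and CARS, LARS and WARS met antisense RNAs. SARS2 met a protein-coding gene on its own strand, a pair that no strand setting would separate. For the overlaps on opposite strands, reads cannot be told apart without a known strand setting. Of the 50-base words in the last 500 bases, 76.6% in SARS2 and at most 7.36% in any other member also occurred in transcripts of other genes, and none in GARS, YARS, TARS or AARS.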

How the data were processed

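Libraries (6) were prepared with Lexogen's 3′ kit, per the labels' protocols. The tools listed are STAR 2.4, HTSeq 0.6.1 and DESeq2, with the build hg19, per the submitters' processing notes. The annotation, strand setting and filters are not given in the sources used here. Values were raw counts, as deposited by the authors, without normalization.

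The test was edgeR's quasi-likelihood F test (version 4.0.16, R 4.3.3, legacy quasi-dispersion, TMM scaling, group as the only term), after filterByExpr with its minimum of 10 counts and total of 15. A call is an adjusted p (Benjamini-Hochberg, all tested genes) under 0.05. Dividing the log2 fold change by the root of F gave the SE. CPM values use totals of the tested genes scaled by TMM. No 2 libraries of a group were copies (chi-square per degree of freedom 9.53 or more). Alternatives were other scalings and filters, DESeq2 1.42.0, limma-voom (limma 3.58.1), a block on the replicate number, the newer quasi-dispersion and leaving out libraries.

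The members and lists were chosen with earlier results of these data known. Full values were given for called members and for those with an unadjusted p under 0.05 and groups apart, with others added after their values were seen (MARS, IARS, QARS, VARS, NARS, WARS, FARSA, CARS2, EARS2, YARS2, IARS2 and WARS2). From other lists the names are ATF4, EIF2AK4 and at most 4 called genes by p (at most 2 if there were no calls). EEF1G, CEBPG, VLDLR, IMPACT and the single myeloid markers were added after their values were seen. Older symbols were matched through the RefSeq table. A gene of the lists that the naming rule would select is not reported here.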

Additional observations from a re-analysis of the deposited data

How the results depend on the processing

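Across 16 alternatives no member was called higher and no mitochondrial member was called. Counts of higher and lower genes were 373 and 271 without a low-count filter, 217 and 146 with DESeq2, and 7 and 5 with the replicate number as a block. Leaving out 1 library gave 29 to 78 higher and 20 to 55 lower genes. Cytosolic members called lower numbered 6 without a low-count filter, 5 with DESeq2, 0 with the block, 0 without both ends of the first component, and 0 to 2 without 1 library. The cytosolic median was -0.38 without both ends and -0.37 to -0.25 without 1 library. The mitochondrial median was -0.15 without both ends and -0.12 to 0.038 without 1 library. The cause of these shifts was not tested, beside the smaller number of libraries.

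Same-numbered libraries of the groups did not deviate together (correlations of deviations -0.60, -0.52 and 0.02 for numbers 1, 2 and 3), and no library correlated best with its own number (vehicle 2 with MRT199665 1 gave 0.59 and vehicle 1 with MRT199665 2 gave 0.53), so the numbers were not taken to pair them. With the replicate block, GARS and YARS had an adjusted p of 0.255 each, and in that fit ATF4 (0.319), ASNS (0.0672), PHGDH (0.0762) and SESN2 (0.134) were not called either.

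Genes near 0 changed sign, none of them called in any setting. Without both ends, HARS was at -0.071, FARS2 at -0.26, HARS2 at 0.16, IARS2 at -0.18, MARS2 at -0.33, PARS2 at -0.12 and EIF2AK4 at 0.0099. FARS2 was at -0.0077 with limma-voom, HARS2 at 0.0034 and WARS2 at 0.0044 with upper quartile scaling, and WARS2 at 0.0085 with the block. Without 1 library the ranges were -0.10 to 0.37 for HARS, -0.13 to 0.039 for AARS2, -0.14 to 0.26 for FARS2, -0.17 to 0.12 for HARS2, -0.14 to 0.28 for IARS2, -0.23 to 0.13 for LARS2, -0.10 to 0.48 for MARS2, -0.012 to 0.38 for PARS2 and -0.26 to 0.16 for WARS2. The SE reached 0.43 for MARS2, the member with the fewest counts.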
